A study of Caenorhabditis elegans with 6 samples.

Results

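The 48 glutathione S-transferase (GST) genes on the array are described here, which were all genes whose symbol starts with gst-, gsto- or gstk-. They were 48 of the 18999 features tested, each represented by the probe with the highest mean intensity, and 49 such genes are listed in the RefSeq table of assembly WBcel235 (gst-34 is the one not measured here). Gene expression of Caenorhabditis elegans, strain N2, exposed at 24 °C on agar to an organophosphorus combination of 0.5 mg/L chlorpyrifos (CPF) with 1 mg/L diazinon (DZN) was measured against that of control nematodes kept with the solvent acetone at the same temperature. Both groups were wild type, were fed E. coli OP50, and were started from synchronized eggs. RNA of the mixture (CPF+DZN) and of the control was hybridised together on 6 arrays, with the mixture in Cy5 on 3 arrays and in Cy3 on the other 3. The labels give 72 h and L3/L4 for both groups, while the methods of the study give a shorter time and late L3, so that the age at harvest is not settled. Whole animals were extracted, so fewer cells of a type and less RNA per cell cannot be told apart. The methods describe biological replicates that each pooled the worms of several dishes. The scanner headers, however, carry 6 distinct control extract numbers but only 5 for the mixture, since one is shared by replicate 2 of mixture in Cy5 and replicate 1 of mixture in Cy3. Whether these arrays hold the same mixture RNA is not settled, so n = 6 counts arrays.

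Glutathione S-transferases join the tripeptide glutathione to electrophilic compounds, which makes them more soluble and marks them for export, and many also reduce peroxides. Together with UDP-glucuronosyltransferases they form the second phase of detoxification, after cytochrome P450 enzymes have oxidised a compound, and organophosphorus pesticides are among the compounds that can be conjugated in this way. In C. elegans most gst genes belong to a nematode-expanded class that lies in tandem groups in the genome, beside a few genes of the pi, zeta, omega (gsto) and kappa (gstk) classes that are shared with other animals. Many are expressed in the intestine, and several are targets of SKN-1, the worm counterpart of the mammalian Nrf factors. No probe sequences were used here, so whether a probe also binds a close paralog was not tested.

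With CPF+DZN, 11 of the 48 GST genes were higher and 0 were lower than in control nematodes (limma, Benjamini-Hochberg adjusted p under 0.05, adjusted over all 18999 features). That is 22.9% of the members, where 6.74% of all features were called higher, and 0 members where 7.13% of all features were called lower. At an unadjusted p under 0.05, 14 members were higher and 2 lower. The share of all features at that threshold was not counted, so nothing is read from these counts. The median log2 ratio of mixture over control was 0.14 over the 48 members and 0.00 over all features. Of the members 35 were above 0 and 13 below, so 72.9% were above 0, where 50% of all features were. The increase was uneven within the family. The log2 ratio of gst-5 was 2.40, those of the other 10 called members were between 0.36 and 1.04, and those of the 37 members that were not called were between -0.24 and 0.42.

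**Figure D1:**
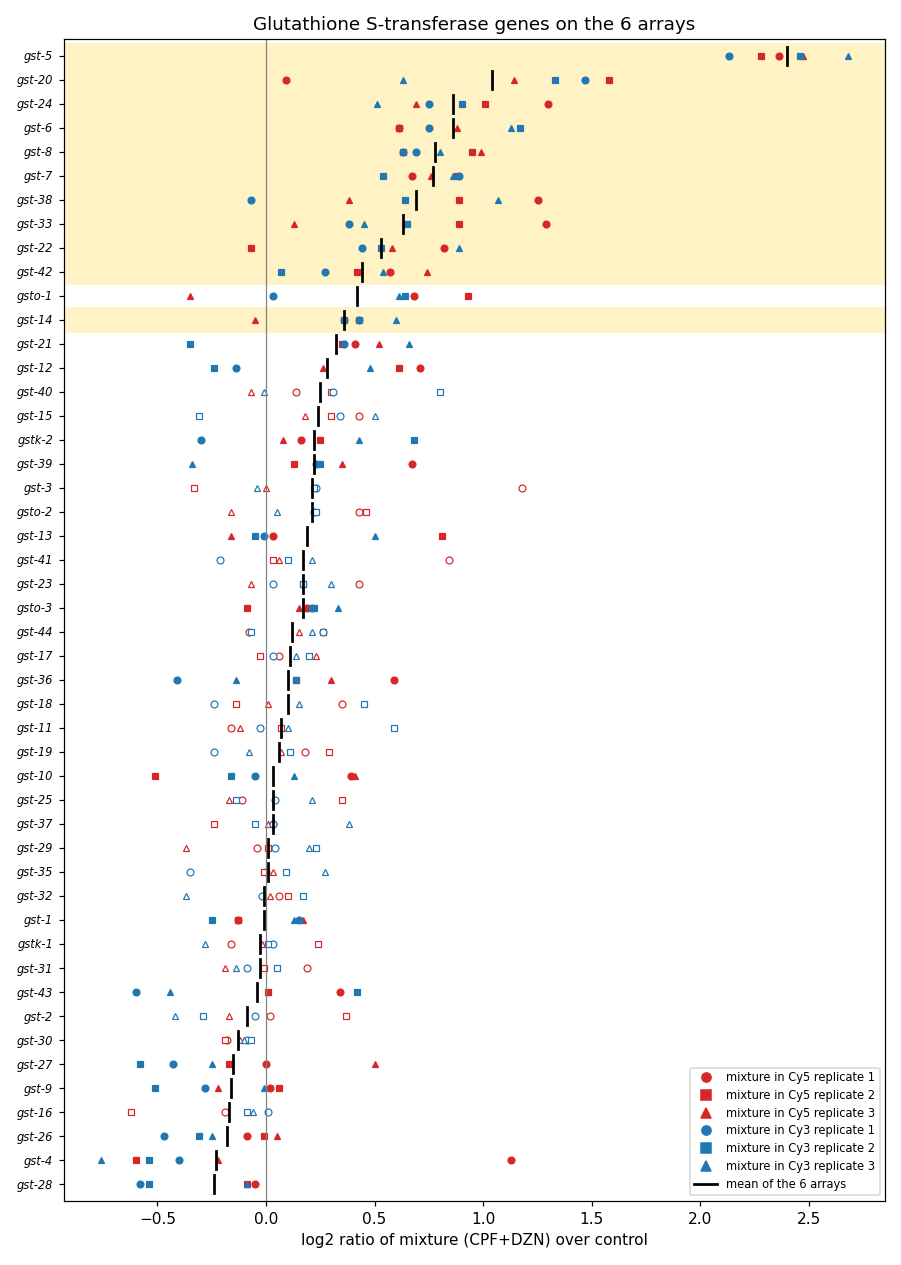
Log2 ratio of mixture (CPF+DZN) over control (x axis) of each of the 48 GST genes (y axis, ordered by mean ratio) on each of the 6 arrays. Red symbols are arrays with the mixture in Cy5, blue symbols arrays with the mixture in Cy3, black bars the mean, open symbols genes that fewer than 3 arrays detected in one of the groups, and shaded rows the 11 genes called higher. The gst-5 symbols sit between 2.13 and 2.68, apart from those of all other members.

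A spot counted as well above background if its foreground median was over the background median by more than 2 SDs of the background. In this sense 27 members were measured for mixture and for control on at least 3 arrays, and all 11 called members were among them. Of the other 16 in this class, 9 had a mean ratio above 0 and 7 below, between -0.24 and 0.42. A further 8 members were detected on some arrays only (-0.17 to 0.25), and 13 were on no array well above background in either group (-0.13 to 0.12), so that their ratios carry little signal. Those 13 were gst-2, gst-17, gst-18, gst-19, gst-25, gst-29, gst-30, gst-31, gst-32, gst-35, gst-37, gst-44 and gstk-1. No member had saturated pixels on any array.

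The highest response of the family was in gst-5 (sequence name R03D7.6, chromosome II), a transferase known to conjugate 4-hydroxynonenal, a product of lipid peroxidation. Its normalized log2 level was 11.62 at the lowest, 12.69 at the median and 13.20 at the highest in mixture samples, against 9.49, 10.22 and 10.84 in control samples. The groups did not overlap, so the lowest mixture sample was above the highest control sample. Such a separation upwards was seen in 0.658% of all features and in 1 member, gst-5, and a separation downwards in 0.395% of all features and in 0 members. The log2 ratio was 2.40 ± 0.19 (SD, n = 6, adjusted p = 1.90e-05), a 5.27-fold difference with a 95% interval of 2.19 to 2.61 on the log2 scale. Both dye orientations gave nearly the same mean, 2.37 with the mixture in Cy5 and 2.43 with the mixture in Cy3. The call held under all 23 alternative settings, between 2.12 and 2.49.

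Next to one another on chromosome II lie gst-6, gst-7 and gst-8, with no protein-coding gene between them in the RefSeq table, and gst-9 after 2 other genes. The first 3 were higher on all 6 arrays, and gst-9 was not called. The gst-6 gene (F11G11.3) had log2 levels of 9.16, 9.47 and 10.32 (lowest, median, highest) in mixture samples and of 8.0, 8.60 and 9.71 in control samples, which is a mean difference of 0.86 ± 0.24 (SD, n = 6, adjusted p = 0.00216). For gst-7 (F11G11.2) the levels were 8.95, 10.97 and 11.45 in mixture samples and 8.09, 10.29 and 10.77 in control samples, and the ratio was 0.77 ± 0.14 (SD, n = 6, adjusted p = 0.00234). The levels of gst-8 (F11G11.1) were 8.96, 10.63 and 11.36 in mixture samples and 8.01, 9.97 and 10.56 in control samples, with a ratio of 0.78 ± 0.16 (SD, n = 6, adjusted p = 0.00216). The ranges of the groups overlapped for these 3 genes, since the level varied more between arrays than between the groups, while within each array the mixture channel was the brighter one by 0.54 to 1.17. All 3 encode enzymes of the nematode-expanded class. A second probe of gst-7 gave 1.03 ± 0.62, higher on 5 of 6 arrays, and a second probe of gst-8 gave 0.88 ± 0.23, higher on all 6. The fourth gene, gst-9, had a ratio of -0.16 ± 0.22 (SD, n = 6), below 0 on 4 arrays, and its 95% interval ran from -0.37 to 0.05.

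Another run of 9 GST genes on chromosome II, in the order gst-20, gst-24, gst-15, gst-14, gst-12, gst-16, gst-19, gst-17 and gst-18 with no other protein-coding gene between them, held 3 called members. Most of the increase in this run was in its first genes. The gst-24 gene (F37B1.1) had log2 levels of 8.61, 9.95 and 10.37 in mixture samples, against 7.92, 9.06 and 9.36 in control samples. Its mixture channel was the brighter one on all 6 arrays, by 0.51 to 1.30, and its log2 ratio was 0.86 ± 0.28 (SD, n = 6, adjusted p = 0.00389). In gst-20 the levels were 6.26, 9.55 and 10.99 in mixture samples and 6.17, 8.14 and 9.42 in control samples. On mixture in Cy5 replicate 1 neither channel of gst-20 was well above background and the ratio was 0.09, while the ratios on the other 5 arrays were between 0.63 and 1.58. The mean was 1.04 ± 0.57 (SD, n = 6, adjusted p = 0.017), and it was 1.25 without that array. The call of gst-20 was kept in 15 of 23 alternatives.

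The third called gene of this run, gst-14, was dim. Its log2 levels were 6.94, 7.25 and 7.63 in mixture samples and 6.58, 6.96 and 7.03 in control samples, with a mean difference of 0.36 ± 0.22 (SD, n = 6, adjusted p = 0.0375), and the ratio was above 0 on all arrays except mixture in Cy5 replicate 3 (-0.05). Of its 2 other probes, 1 gave 0.41 ± 0.23 and 1 gave -0.08 ± 0.37, both hardly above background. The call of gst-14 was kept in 10 of 25 alternatives. The other members of the run were between -0.17 (gst-16) and 0.28 (gst-12), and gst-17, gst-18 and gst-19 were on no array well above background. Over the 9 genes the median log2 ratio was 0.24.

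**Figure D2:**
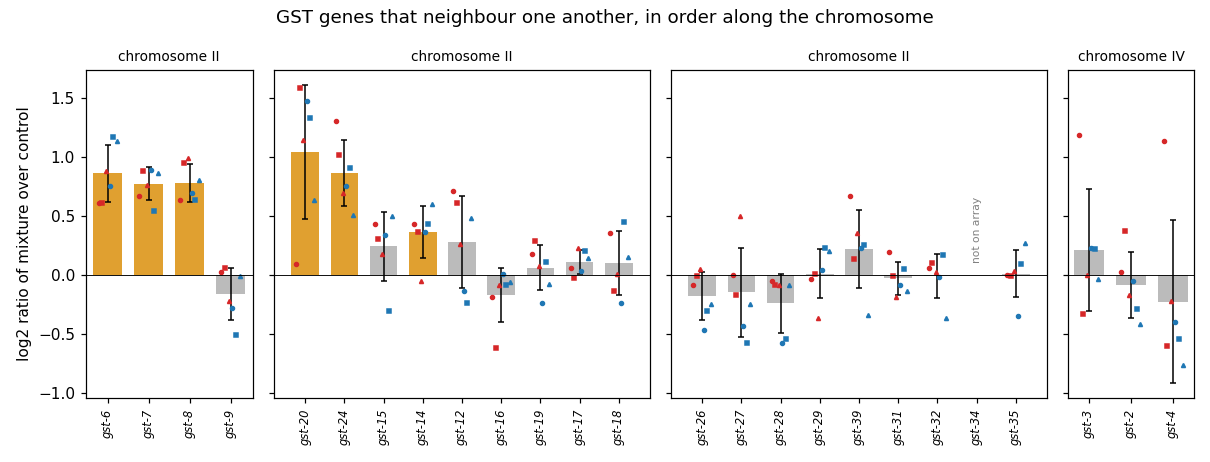
Mean log2 ratio of mixture over control (bars, error bars are SDs over the 6 arrays, small symbols the single arrays) for the 4 groups of neighbouring GST genes, in their order along chromosomes II and IV. Orange bars are genes called higher, grey bars genes that were not called. The called genes lie in the first and second panels, and 0 of the genes in the third and last panels were called.

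A run of 9 genes elsewhere on chromosome II, of which 8 were measured, had 0 called members. They were gst-26, gst-27, gst-28, gst-29, gst-39, gst-31, gst-32 and gst-35, with log2 ratios of -0.24 to 0.22 and a median of -0.02. The same was found for gst-3, gst-2 and gst-4, which neighbour one another on chromosome IV (0 called, -0.23 to 0.21). By chromosome, 7 of the 25 members on chromosome II, 3 of 9 on chromosome V and 1 of 3 on chromosome X were called higher, and 0 of 2 on chromosome I, 0 of 4 on chromosome III and 0 of 5 on chromosome IV. The share of all features called on each chromosome was not counted, so nothing is read from these counts.

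Besides gst-5, 4 called members lie alone. On chromosome V, gst-38 (F35E8.8) had log2 levels of 7.57, 7.97 and 9.08 in mixture samples, against 6.97, 7.51 and 8.02 in control samples. The ratio was 0.69 ± 0.48 (SD, n = 6, adjusted p = 0.0319) and ran from -0.07 on mixture in Cy3 replicate 1 to 1.25 on mixture in Cy5 replicate 1. The levels of gst-33 (C02A12.1) on the same chromosome were 7.42, 7.67 and 8.37 in mixture samples and 6.92, 7.12 and 7.42 in control samples, so the ranges just touched, with a ratio of 0.63 ± 0.41 (SD, n = 6, adjusted p = 0.0276). Both genes had their highest ratio on mixture in Cy5 replicate 1. The third gene on chromosome V, gst-22 (F21H7.1), had levels of 8.14, 9.21 and 9.75 in mixture samples and of 7.93, 8.70 and 8.88 in control samples, with a ratio of 0.53 ± 0.34 (SD, n = 6, adjusted p = 0.0319) that was below 0 on mixture in Cy5 replicate 2 only (-0.07). Its ratio was 0.24 with median centring in place of loess (adjusted p = 0.226). The call was kept in 13 of 23 alternatives for gst-38, in 13 of 23 for gst-33 and in 12 of 23 for gst-22.

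The zeta class was represented among the called genes by gst-42 (D1053.1, chromosome X), the worm counterpart of maleylacetoacetate isomerase, an enzyme of tyrosine breakdown. Its log2 levels were 8.99, 9.54 and 9.98 in mixture samples and 8.58, 8.97 and 9.57 in control samples. The groups overlapped, but the ratio was above 0 on all 6 arrays, between 0.07 and 0.74, with a mean of 0.44 ± 0.24 (SD, n = 6, adjusted p = 0.0214). With median centring in place of loess the ratio of gst-42 was 0.11 (adjusted p = 0.504), and 10 of 23 alternatives did not call it. Counted over the family, 8 members had a ratio above 0 on all 6 arrays, where 8.76% of all features did, and 2 members (gst-28 and gst-30) had a ratio below 0 on all 6, where 8.62% of all features did.

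**Figure D3:**
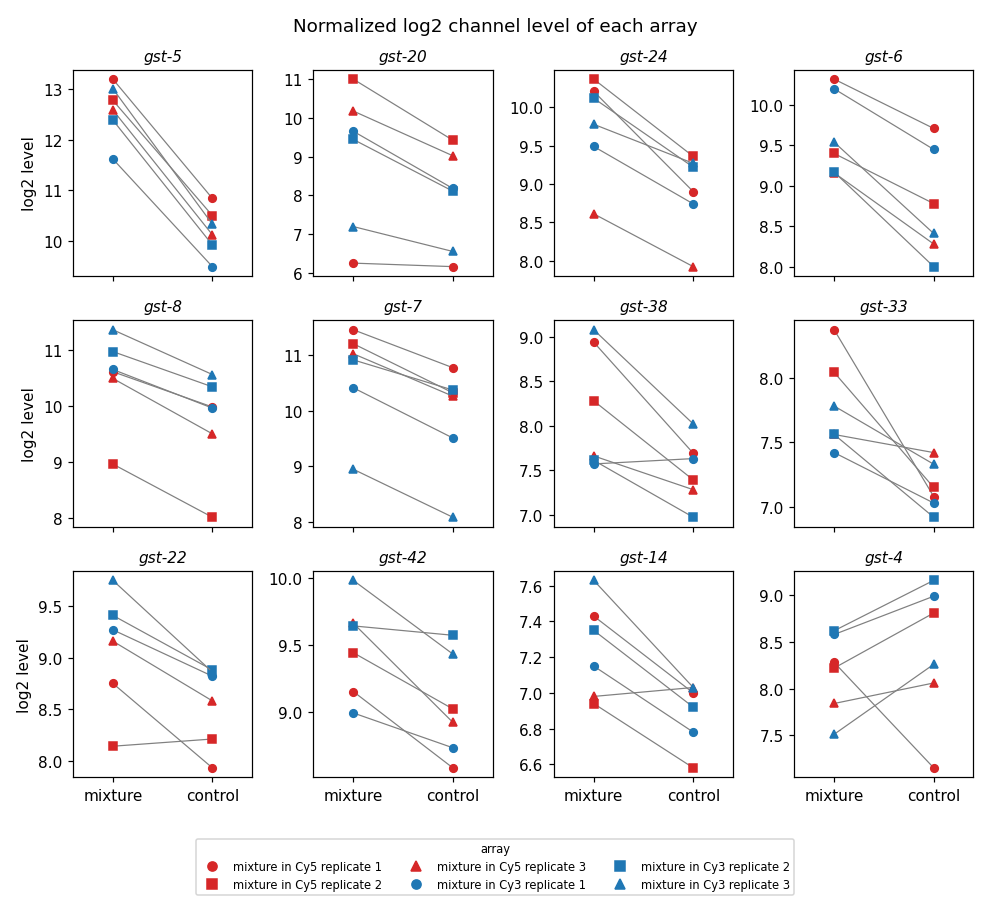
Normalized log2 level of the 11 called GST genes and of gst-4 in mixture samples (left) and control samples (right) of each array, with a line joining the channels of 1 array and a y axis of its own for each gene. The mixture end of the line is the higher one on all 6 arrays for gst-5, gst-20, gst-24, gst-6, gst-8, gst-7, gst-33 and gst-42, and gst-4 has 1 line that runs against the other 5.

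Among the members that were not called, gst-4 is the best known, a SKN-1 target whose promoter is widely used in reporter strains for oxidative and xenobiotic stress. Its log2 levels were 7.51, 8.25 and 8.62 in mixture samples, against 7.15, 8.54 and 9.16 in control samples. On mixture in Cy5 replicate 1 the ratio was 1.13, whereas the other 5 arrays gave -0.76 to -0.22, so the arrays did not agree in direction. The mean was -0.23 ± 0.69 (SD, n = 6, adjusted p = 0.538) with a 95% interval from -0.70 to 0.24. Without mixture in Cy5 replicate 1 it was -0.49 and passed the threshold as lower (adjusted p = 0.0468). The arrays of the shared scan day were mixture in Cy5 replicate 1 (1.13), mixture in Cy3 replicate 2 (-0.54) and mixture in Cy3 replicate 3 (-0.76). The fit with a dye effect gave 0.24 for that day (adjusted p = 0.291). It weighs the orientations equally, so the single Cy5 array counted as much as both Cy3 arrays together.

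For gst-10, a transferase linked to 4-hydroxynonenal and life span in the worm, the log2 levels were 8.52, 10.90 and 11.42 in mixture samples and 8.13, 10.84 and 11.58 in control samples. The groups overlapped almost fully, 3 arrays were above 0 and 3 below, and the ratio was 0.03 ± 0.35 (SD, n = 6, 95% interval -0.27 to 0.34). The same held for the pi class gene gst-1, with levels of 10.36, 11.84 and 12.59 in mixture samples, 10.61, 11.68 and 12.72 in control samples and a ratio of -0.01 ± 0.18 (SD, n = 6, 95% interval -0.22 to 0.20). These intervals leave room for small differences in either direction.

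The omega class enzymes reduce dehydroascorbate and other substrates with glutathione. The levels of gsto-1 were 8.21, 9.30 and 10.11 in mixture samples and 8.38, 8.67 and 9.43 in control samples. The ratio was below 0 on mixture in Cy5 replicate 3 only (-0.35) and reached 0.93 on mixture in Cy5 replicate 2, with a mean of 0.42 ± 0.48 (SD, n = 6, adjusted p = 0.15). Without mixture in Cy5 replicate 3 it was 0.62 and passed the threshold (adjusted p = 0.00623), as it did in 5 of 23 alternatives. The later slide series held mixture in Cy5 replicate 3 and the Cy3 arrays (0.03, 0.64 and 0.61), while both arrays of the earlier series had the mixture in Cy5. Slide series and dye orientation are thus partly confounded. Within the later series the fit with a dye effect gave 0.04 (adjusted p = 0.944), with the single Cy5 array weighing as much as the Cy3 arrays together. With median centring the ratio of gsto-1 was 0.11 (adjusted p = 0.547). The other omega genes, gsto-2 and gsto-3, had ratios of 0.21 ± 0.23 and 0.17 ± 0.14 and were not called. Of the kappa class, whose mammalian member is found in mitochondria and peroxisomes, gstk-1 was at 5.99, 6.13 and 6.17 in mixture samples and at 5.89, 6.14 and 6.28 in control samples, not well above background on any array (-0.03 ± 0.18). The other kappa gene, gstk-2, was measured on at least 5 arrays in each group and had a ratio of 0.22 ± 0.33 (adjusted p = 0.317).

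The most negative means among measured members were those of gst-28, gst-4 and gst-26. The levels of gst-28 were 7.64, 8.0 and 9.68 in mixture samples and 8.05, 8.34 and 9.76 in control samples, with a ratio of -0.24 ± 0.25 (SD, n = 6, adjusted p = 0.115). The ratio was below 0 on all 6 arrays, but on 4 of them it lay between -0.09 and -0.05. For gst-26, which lies next but one to it, the levels were 10.26, 11.26 and 11.44 in mixture samples and 10.73, 11.35 and 11.69 in control samples, and the ratio was -0.18 ± 0.20 (SD, n = 6, adjusted p = 0.143). In both genes the mean was lower with the mixture in Cy3 (-0.40 and -0.34) than with the mixture in Cy5 (-0.08 and -0.02). A dye effect past the threshold was found in 0 members and in 0.0211% of all features. At an unadjusted p under 0.05, 2 members had one, a count for which no share of all features is given. With median centring in place of loess, gst-28 and gst-26 were called lower, at -0.49 and -0.47. In that setting 3439 of all features were called lower and 679 higher, against 1355 and 1281 in the main fit, so nothing is read from these calls.

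The rest of the glutathione pathway was examined in lists of genes that supply glutathione, use it or carry the conjugates away. Their counts stand beside 6.74% of all features called higher and 7.13% called lower, and at these list sizes nothing is read from them. Of 14 genes of glutathione synthesis and recycling, 0 were higher and 1 was lower, with a median log2 ratio of 0.07. The one that fell was cth-1, a cystathionine gamma-lyase, which makes the cysteine needed for glutathione, with a ratio of -0.67 ± 0.28 (SD, n = 6, adjusted p = 0.0117), below 0 on all 6 arrays. The rate-limiting enzyme of glutathione synthesis, gcs-1, had log2 levels of 9.33, 9.73 and 10.32 in mixture samples and of 9.46, 9.73 and 10.13 in control samples, with a ratio of 0.01 ± 0.27 (SD, n = 6, adjusted p = 0.951). Next in the list by p were cysl-4 (-0.20 ± 0.30), glod-4, a glyoxalase (0.22 ± 0.22), and cysl-2, a cysteine synthase (0.29 ± 0.41), which were not called.

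Among 19 glutathione peroxidases, glutaredoxins and thioredoxins, 2 were higher and 0 lower, with a median of 0.07. The thioredoxin trx-3, known as an intestinal one, was higher by 0.67 ± 0.33 (SD, n = 6, adjusted p = 0.00602) and the peroxidase gpx-5 by 0.39 ± 0.21 (adjusted p = 0.0324), both on all 6 arrays, while glrx-5 (-0.28 ± 0.19, adjusted p = 0.0783) and trx-2 (0.21 ± 0.10, adjusted p = 0.106) were not called. With median centring gpx-5 was at 0.078 (adjusted p = 0.538), and 12 of 23 alternatives did not call it. The MRP type ABC transporters, which pump glutathione conjugates out of the cell, had 3 of 8 genes higher and 0 lower, with a median of 0.00. They were mrp-3 (0.60 ± 0.20, adjusted p = 0.00985), mrp-2 (0.53 ± 0.17, adjusted p = 0.0116) and mrp-5 (0.38 ± 0.19, adjusted p = 0.0255), each above 0 on all 6 arrays. For mrp-5 median centring gave 0.067 (adjusted p = 0.628), and it too was not called by 12 of 23 alternatives. The fourth by p, mrp-4, had a ratio of -0.33 ± 0.56 (adjusted p = 0.0507).

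Of 17 regulators of GST transcription, 2 were higher and 0 lower, with a median of 0.13. The calcium/calmodulin-dependent kinase unc-43 had a ratio of 0.51 ± 0.29 (SD, n = 6, adjusted p = 0.0269) and wdr-23, which encodes the adaptor that marks SKN-1 for degradation, 0.31 ± 0.13 (adjusted p = 0.0409). The call of wdr-23 was kept in only 4 of 23 alternatives and its direction turned with median centring (-0.006), and that of unc-43 was kept in 12 of 23. Neither sek-1, a kinase upstream of SKN-1 (0.26 ± 0.23, adjusted p = 0.076), nor daf-16, the FOXO factor (0.18 ± 0.09, adjusted p = 0.153), passed the threshold. The skn-1 transcript itself had log2 levels of 8.63, 9.84 and 11.19 in mixture samples and of 8.76, 9.58 and 11.01 in control samples, with 3 arrays above 0 and 3 below (0.19 ± 0.31, adjusted p = 0.279). A transcript level does not report the activity of a factor that is controlled through its protein.

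In a list of 17 further genes, most of them of stress responses or detoxification, 8 were higher and 0 lower. Their median log2 ratio was 0.64. The list was chosen with earlier results of these data known, so its count and median are not compared with those of the GST genes. The glucosylceramidase gba-2 had a ratio of 5.05 ± 0.52 (SD, n = 6, adjusted p = 1.90e-05), with its control channel well above background on 1 array. The size of the gba-2 ratio depended on the background treatment and ran from 3.89 in the authors' value table to 6.77 with plain subtraction. The UDP-glucuronosyltransferases ugt-22 and ugt-25 had ratios of 1.64 ± 0.43 (adjusted p = 0.00149) and 1.63 ± 0.19 (adjusted p = 1.31e-04), and the cadmium-responsive cdr-1 had 1.30 ± 0.39 (adjusted p = 0.00153), with its control channel well above background on 2 arrays. The size of the cdr-1 ratio likewise ran from 0.81 in the authors' value table to 2.39 with plain subtraction. Both genes were called under all 23 alternatives.

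Transcripts of other tissues moved on the same arrays. Of the oocyte markers 17 of 18 were lower and 0 higher (median -1.37, array medians from -2.26 to -0.22), and of the vitellogenins, the yolk protein genes expressed in the adult intestine, 6 of 6 were lower (median -1.64, from -2.67 to -0.37). Of the sperm markers 7 of 15 were lower (median -0.59), and of the germ line markers also 7 of 15 (median -0.53). Intestinal markers had 8 of 16 higher and 0 lower (median 0.32, from 0.10 to 0.44), body wall muscle 2 of 11 higher (0.21), hypodermis 4 of 10 higher and 1 lower (0.20) and neurons 0 of 11 higher and 1 lower (0.29). Oocyte and yolk genes are mainly those of adults, whereas the labels give L3/L4. The part of these markers in the GST values was not tested.

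**Figure D4:**
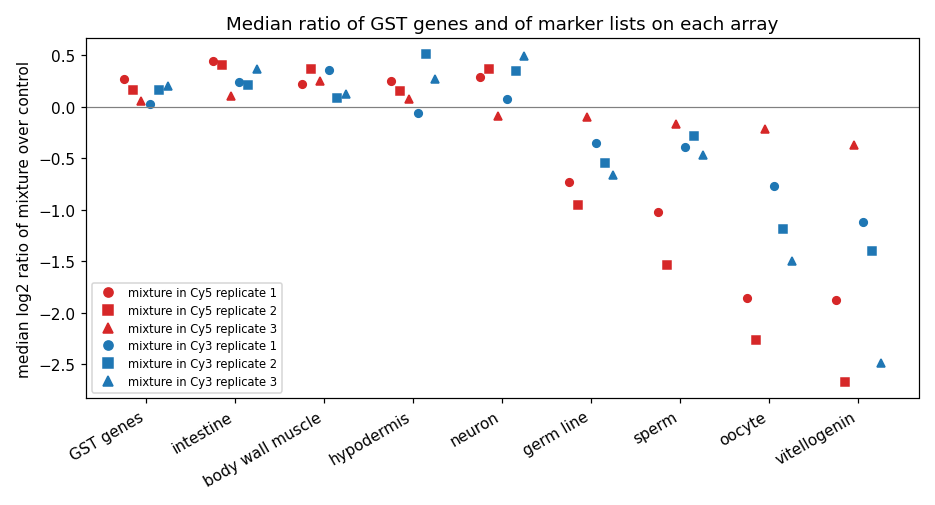
Median log2 ratio of mixture over control (y axis) of the 48 GST genes and of 8 marker lists (x axis) on each of the 6 arrays, red with the mixture in Cy5 and blue with the mixture in Cy3. The GST medians lie between 0.03 and 0.27, while the oocyte medians spread from -2.26 to -0.22.

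Set against these markers array by array, the median ratio of the GST genes was 0.27, 0.16 and 0.06 on mixture in Cy5 replicates 1 to 3 and 0.03, 0.16 and 0.20 on mixture in Cy3 replicates 1 to 3. The array with the smallest oocyte shift (-0.22), mixture in Cy5 replicate 3, also had the smallest intestinal median (0.10). On that array gst-5 was at 2.47, gst-20 at 1.14, gst-8 at 0.99, gst-6 at 0.88, gst-7 at 0.76, gst-42 at 0.74, gst-24 at 0.69, gst-22 at 0.58 and gst-38 at 0.38. Each of these values was within or above the range of the other arrays. In contrast gst-33 was at 0.13, gst-14 at -0.05 and gsto-1 at -0.35 there, below their values on every other array. These are values of 1 array, and a link between the marker shift and the GST ratios was not tested. Between pairs of arrays the ratios of the 48 members correlated with r of 0.51 to 0.789, and of 0.259 to 0.649 without gst-5, where over all features r was 0.237 to 0.714 (across genes, which are not independent replicates).

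The number of called members depended on single arrays, as did that of all features. Members called higher were 6 without mixture in Cy5 replicate 1, mixture in Cy5 replicate 2, mixture in Cy3 replicate 1 or mixture in Cy3 replicate 3. All features called higher were 572, 472, 656 and 357 in these settings, against 1281 with all arrays. Without mixture in Cy3 replicate 2 there were 7 members of 480 features, and without mixture in Cy5 replicate 3 there were 13 of 2173. Of the 11 genes, gst-5, gst-6, gst-7, gst-8 and gst-24 kept their call without each array in turn, with largest adjusted p-values of 6.60e-04, 0.0196, 0.0199, 0.0192 and 0.0291, and the other 6 lost it without at least 1 array. With the pair of arrays of one mixture extract number averaged, 9 members of 925 features were called higher, and gst-14 (adjusted p = 0.0683) and gst-33 (adjusted p = 0.0605) were not. With plain background subtraction 2 members (gst-5 and gst-20) of 122 features were called higher. A linear model on the channel values that took the channels of an array as unpaired, with Benjamini-Hochberg adjustment, called 1 member (gst-5) of 50 features higher. It is of the kind named in the methods but is no repeat of that work, since no outlying values were removed.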

How the data were processed

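The deposited scanner files hold the spot intensity in each channel (foreground and background medians, means and SDs) and the percent of saturated pixels, per the file headers with no normalization. According to the methods, the authors normalized by loess within and Aquantile between arrays, and the submitters' processing notes name limma 3.2.3. The background correction and the meaning of the spot flags are not given in the sources used here, and all spots were kept. A value table from the authors gives log2 ratios of these arrays after outlying values were removed (5.24 to 21.2% missing). Set against the scanner ratios it ran as mixture over control on all 6 arrays (r 0.87 to 0.957) with slopes of 0.662 to 0.786, so its scale is not fully known, and it was an alternative.

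Here, background was corrected with normexp (offset 50), ratios were normalized by loess and Aquantile (limma 3.58.1 in R 4.3.3) and turned to mixture over control, and a mixture effect with a dye effect was fitted with lmFit and eBayes to the 6 log2 ratios. Adjusted p-values are two-sided and over all 18999 features. Errors are SDs, and the number of arrays limits the precision. Signal stood well above background for 44.1 to 54.9% of C. elegans spots in mixture channels and for 47.9 to 58.1% in control channels. Of 22490 probes, 21380 were named through the sequence name or the platform annotation and the RefSeq table of WBcel235, whose coordinates were not used beyond the order of genes, since the files name no build. No sequences were used, so none are given.

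The GST genes given with levels are those with an adjusted p under 0.05, the 3 most negative means among measured members, and gst-4, gst-10, gst-1, gst-42, gsto-1 and gstk-1. Of each pathway list, the 4 genes with the smallest p are named, and gcs-1 and skn-1 always. A neighbour group allows up to 4 protein-coding genes between GST genes. Genes such as gst-9, gsto-2 and gstk-2 were added after their values were seen. Members and lists were chosen with earlier results of these data known. Alternatives covered each array left out, background correction, normalization, the dye effect, dim probes, probe choice, the authors' table, the foreground mean, replicate, slide and scan day blocks, a mixture extract number shared by 2 arrays, and a linear model on channel values of the kind the methods name. In that model the channels of an array were unpaired and no outlying values were removed, so it is no repeat of the study's own. The steps were also run on simulated arrays with independent noise and with changes placed in bright probes only. That run does not cover dim members, and nothing is read from it here.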

Additional observations from a re-analysis of the deposited data

Results flagged for a closer look

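For each named gene the 6 arrays were checked for a sample far from the others, a check that chance meets in about 1 of 20 groups. The ratio of gst-4 was 1.13 on mixture in Cy5 replicate 1, against -0.76 to -0.22 on the other 5 arrays. That of unc-43 was -0.04 on mixture in Cy3 replicate 1, against 0.49 to 0.74 on the others, and that of sek-1, in the same array, was -0.16, against 0.22 to 0.44. No named gene moved one way on all arrays of one dye orientation and the opposite way on all arrays of the other.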

How the results depend on the processing

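The number of GST genes called higher was 11 and ranged from 6 to 13 with each array left out. It was 2 with plain background subtraction, 7 without background correction, 7 with the replicate block, 7 within the later slide series, 1 with a linear model on unpaired channel values after adjustment and 2 at an unadjusted p under 0.01. That model removed no outlying values and so is no repeat of the study's own. In the same order, all features called higher in these settings were 122, 998, 531, 382, 50 and 293, against 1281 in the main fit. GST genes called lower were 0, from 0 to 1 with an array left out and 2 with median centring. The later series and the shared scan day each held 1 array with the mixture in Cy5. In these settings the fit with a dye effect gave that array as much weight as the Cy3 arrays together. The median GST ratio was 0.399 with plain subtraction, 0.043 in the authors' table and 0.252 within the shared scan day. A dye effect was called in 1 member within that day. Called features numbered 2636, and 535 to 4609 with an array left out, 153 with plain subtraction, 4118 with median centring (679 higher and 3439 lower, against 1281 and 1355), 950 with the replicate block, 4308 with slide series as a block, 891 within the later series, and 56 and 583 with the unpaired model. Pathway genes called were 16, from 9 to 19 with an array left out, 5 with plain subtraction, 8 within the later series, and 4 and 7 with the unpaired model. Replicate numbers were taken here only to name arrays. Deviations of same-numbered arrays from the means of their orientation correlated at -0.107, -0.00647 and -0.233. With no pair known to share RNA to compare with, these values cannot decide whether same-numbered arrays share material. Signs turned, with no call, for gst-1 (plain subtraction 0.009, print-tip loess 0.011, authors' values 0.001, later series 0.090, arrays left out -0.059 to 0.055), gst-10 (median centring -0.268, authors' values -0.029, foreground mean -0.050, arrays left out -0.044 to 0.186), gstk-1 (median centring 0.085, foreground mean 0.021, arrays left out -0.085 to 0.021), gst-4 (shared scan day 0.241) and gcs-1 (median centring -0.315, authors' values -0.021, foreground mean -0.017, arrays left out -0.034 to 0.071). Median centring also turned cysl-2 (-0.020), daf-16 (-0.124), glod-4 (-0.091), sek-1 (-0.057), skn-1 (-0.135), trx-2 (-0.095) and wdr-23 (-0.006), the mean over probes turned skn-1 (-0.051), and a further probe turned gst-14 (-0.075). The 11 called members stayed above 0 under every alternative run, except that probe of gst-14. Pathway genes and the dye effect were put through the alternatives after the data were seen. The causes were not tested. Saturation limited no member, and 13 members never rose well above background.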

Other observations

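Between members that were not called there were further single-array values. On mixture in Cy5 replicate 1, where gst-4 was at 1.13, its neighbour gst-3 was at 1.18 and gst-2 at 0.02, while gst-3 lay between -0.33 and 0.23 on the other arrays. In gst-3 the mixture channel was well above background on 3 arrays and the control channel on 2. These genes were named after their values were seen.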
